A study of Arabidopsis thaliana with 8 samples.

Results

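The 7 genes described here encode proteins of the mitotic apparatus of Arabidopsis thaliana: the Aurora kinases AUR1 (AT4G32830), AUR2 (AT2G25880) and AUR3 (AT2G45490), the histone kinase Haspin (AT1G09450), the checkpoint protein BUBR1 (AT2G33560), the motor KINESIN-12B (AT3G23670) and the chromatin protein 3xHMG-box1 (AT4G11080). They were chosen by name and matched by symbol through the array's probe annotation, which gave 1 probe set for each gene among the 22746 probe sets other than controls. The annotation named 13286 loci in all by probe sets with 1 gene. Roots of ecotype Columbia seedlings were dissected into longitudinal zones that the labels number 1 to 4 and call developmental stages, with 2 samples per zone and 1 Affymetrix array per sample. All 8 samples share one treatment: seedlings grew for 5 days on full-strength MS, a standard plant growth medium, and spent the last 3 hours on sulfur-deficient medium. The zones are therefore compared within sulfur-starved roots, and an effect of sulfur was not measured. The labels do not say which zone holds the root tip. They also leave unsaid whether separate plants gave the 2 samples of each zone, so the p-values measure a spread that may be technical.

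Aurora kinases are serine/threonine kinases that phosphorylate histone H3 and other chromosomal and spindle proteins while a cell divides. In plants AUR1 and AUR2 are closely related and are found on spindle microtubules and at the forming cell plate, whereas AUR3 lies at centromeres. Haspin places a phosphate on histone H3 at centromeres, a mark known to recruit Aurora kinase, and BUBR1 belongs to the spindle assembly checkpoint, which delays anaphase until chromosomes are attached. KINESIN-12B works in the phragmoplast, the microtubule array that builds the new cell wall, and 3xHMG-box1 associates with condensed chromosomes in mitosis. Transcripts of such genes accumulate at the G2 to M transition, so that in a root they are known chiefly from the meristem and from lateral root primordia.

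The values are MAS5 signals, 1 per probe set and array on a linear scale, and on every array their trimmed mean was 250.0. Array medians lay between 57.8 and 79.6. Precision is limited by having 2 arrays per zone. The second array of zone 3 was closer to the second array of zone 2 (r = 0.916 over probe sets, which are not independent) than to its own partner (r = 0.899). The ratio of the 3' to the 5' signal of the GAPDH control transcript, a sign of RNA or amplification quality, ranged from 13.2 to 64.3, with both extremes in zone 1. As a check of tissue, the named root hair markers, the expansins EXPA7 and EXPA18, 2 of 8 listed, summed to 8.50 and 44.3 on the zone 1 arrays and to 317 and 1886 on the zone 4 arrays. The named shoot marker RCA, the activase of Rubisco and 1 of 10 listed, had zone means of 14.9, 30.4, 65.2 and 87.7 in zones 1 to 4, with a log2 difference of 2.86 between zones 4 and 1 (adjusted p = 0.056). The part of these gradients in the results was not tested. In bulk tissue, fewer dividing cells and less transcript per dividing cell cannot be told apart.

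All 7 genes had their highest mean in zone 1, followed by zone 4, zone 2 and zone 3. Taken on the log2 scale, this order of the zone means held for 15.0% of the 13647 probe sets tested, and for 28.5% of the 3673 that differed between zones. A moderated F-test in limma over the 4 zones, with Benjamini-Hochberg adjustment over all probe sets tested, called 6 of the 7, against 26.9% of all probe sets. AUR3 was the exception (adjusted p = 0.0902). For the other 6 the adjusted p lay between 0.00104 (3xHMG-box1) and 0.0197 (KINESIN-12B). Probe sets in the lowest 40% by mean signal, up to 42.5, were not tested. All 7 genes passed this filter, BUBR1 with the help of zone 1, since its mean over the other zones, also 42.5 when rounded, lay just below it.

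**Figure D1:**
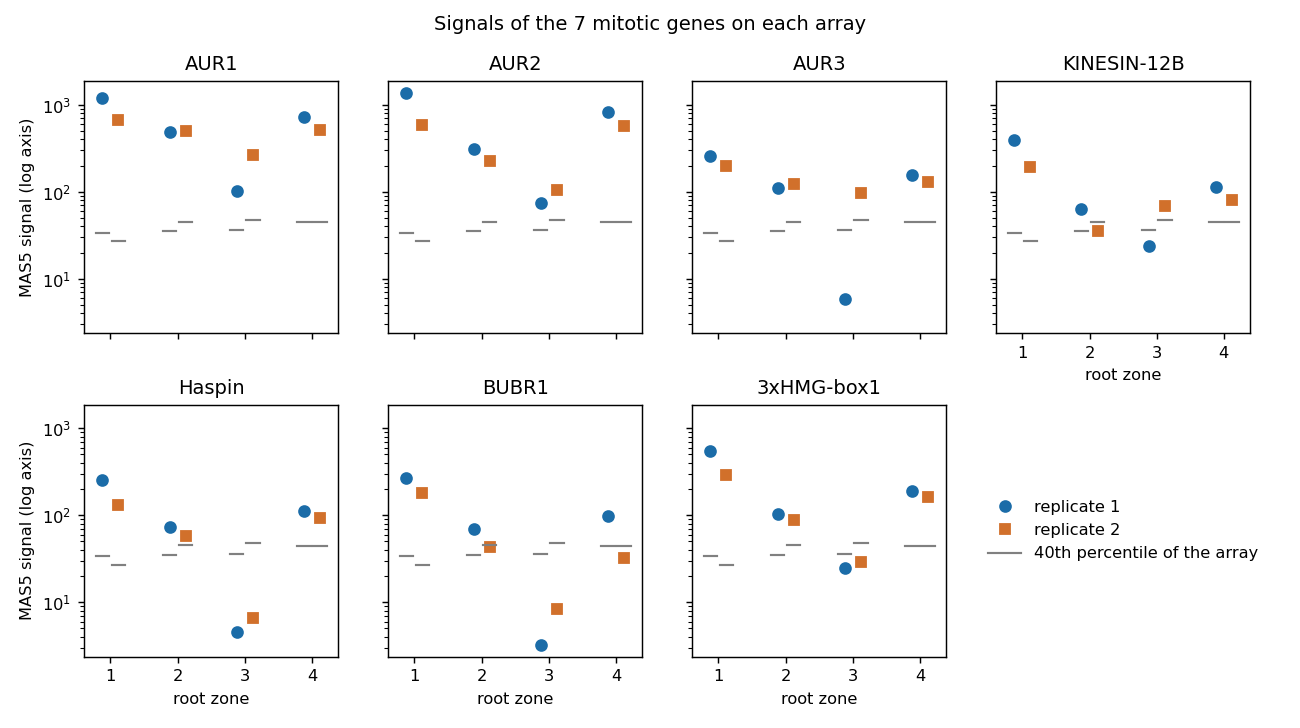
MAS5 signal (log axis) of each of the 7 genes on each array, by root zone. Circles are replicate 1, squares replicate 2, and grey lines mark the 40th percentile of each array. In every panel zone 1 is highest and zone 3 lowest by mean, and Haspin, BUBR1 and 3xHMG-box1 lie below the grey lines on both zone 3 arrays, AUR3 and KINESIN-12B on 1.

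AUR1 and AUR2, the spindle and cell plate Auroras, stayed above the dim part of every array. AUR1 had signals of 1181 and 675 in zone 1, 491 and 506 in zone 2, 102 and 267 in zone 3, and 717 and 513 in zone 4. The arrays of zones 1 and 4 overlapped, and those of zone 2 and zone 3 did not. AUR2 had 1383 and 581 in zone 1, 314 and 226 in zone 2, 74.6 and 104 in zone 3, and 834 and 569 in zone 4. Zones 1 and 4 overlapped again, and both lay above zone 2, which lay above zone 3. As a share of the zone 1 mean, AUR1 stood at 53.7% (zone 2), 19.9% (zone 3) and 66.3% (zone 4). The corresponding shares for AUR2 were 27.5%, 9.08% and 71.4%. Whether the probes of these closely related genes also pick up each other's transcript was not tested.

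AUR3, the centromeric Aurora, had a narrower range outside zone 3 and arrays that disagreed in it. Its signals were 256 and 198 in zone 1, 109 and 124 in zone 2, and 158 and 128 in zone 4. In zone 3 they were 5.86 and 96.3, a 16.4-fold gap, the largest between arrays of 1 zone for any of the 7 genes. The first of these stood at the 15.2 percentile of its array and the second at the 56.8 percentile. On every one of the other 7 arrays AUR3 was above the 40th percentile. The zone means fell in the order of the other Auroras without overlap between neighbouring zones, but the size of the zone 3 difference rests on 1 array. Without zone 3 replicate 1 the log2 difference between zones 3 and 1 was -1.22 in place of -3.24, and without zone 3 replicate 2 it was -5.26. Leaving out replicate 1 or replicate 2 of zone 1 gave -3.06 or -3.43. In each of these fits 1 array stands for a zone.

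Haspin and BUBR1, the genes that act at centromeres and kinetochores, had the lowest signals in zone 3. Haspin had 254 and 132 in zone 1, 73.3 and 57.0 in zone 2, 4.50 and 6.53 in zone 3, and 112 and 93.3 in zone 4. No zones overlapped, and both zone 3 values stood at the 12.2 to 12.7 percentile of their arrays. BUBR1 had 269 and 181 in zone 1, 70.0 and 43.6 in zone 2, 3.204 and 8.29 in zone 3, and 97.0 and 32.7 in zone 4. Zone 4 spanned zone 2 here, so the order of these neighbours did not hold beyond the spread, and zone 3 lay below all other arrays. At this level a MAS5 signal is near the dim end of the array, so the zone 3 values are best read as low rather than as measured amounts. Haspin in zone 3 was 2.85% and BUBR1 2.55% of the zone 1 mean.

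KINESIN-12B, the phragmoplast motor, lay below the 40th percentile on zone 2 replicate 2 (34.3 percentile) and on zone 3 replicate 1 (31.4 percentile). It had 389 and 194 in zone 1, 63.1 and 35.2 in zone 2, 24.0 and 68.8 in zone 3, and 115 and 80.3 in zone 4. Zones 2 and 3 overlapped, with means of 16.8% and 15.9% of zone 1, and zone 4 reached 33.4%. The order of zones 2 and 3 was therefore not resolved for this gene.

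3xHMG-box1, the mitotic chromatin protein, had close arrays outside zone 1. Its signals were 547 and 291 in zone 1, 104 and 88.5 in zone 2, 25.02 and 29.2 in zone 3, and 190 and 161 in zone 4. No zones overlapped, and the ratio between arrays of a zone was at most 1.18 in zones 2 to 4 and 1.88 in zone 1. Both zone 3 values lay below the 40th percentile of their arrays. The zone means were 23.0%, 6.47% and 41.9% of zone 1 in zones 2, 3 and 4.

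The comparison of zone 3 with zone 1, the extremes for these genes, gave the largest differences. A gene was called where limma's adjusted p was below 0.05 and the change 2-fold or more. All 7 genes were called lower in zone 3, where 20.0% of all probe sets were. Both zone 1 arrays lay above both zone 3 arrays for all 7, as for 35.4% of probe sets. BUBR1 fell 42.8-fold (log2 difference -5.42, SE 0.77, adjusted p = 0.00066) and Haspin 33.9-fold (-5.08, SE 0.59, adjusted p = 0.00026). 3xHMG-box1 fell 14.8-fold and AUR2 10.2-fold (adjusted p = 0.00019 and 0.00048). AUR3, KINESIN-12B and AUR1 fell 9.47-fold, 6.76-fold and 5.41-fold (adjusted p = 0.022, 0.0051 and 0.0028). The median log2 difference of the 7 was -3.35, and that of all probe sets tested was -0.01. Among all probe sets the 7 stood between the 0.139 percentile (BUBR1) and the 6.07 percentile (AUR1) of the log2 differences.

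The folds of the dim genes depended on how low signals were treated. When every signal dimmer than its array's 40th percentile was lifted to that value, Haspin had a log2 difference of -2.14 and BUBR1 -2.41 between zones 3 and 1. In that setting AUR3 had -1.93, KINESIN-12B -2.46 and 3xHMG-box1 -3.26, while AUR1 and AUR2 kept -2.43 and -3.35. All 7 were still called, with adjusted p from 0.00011 to 0.0057. The spread among the 7 genes was thus from -3.35 to -1.93 with raised signals, against -5.42 to -2.43 with the deposited ones, and the order of the genes by size changed. Differences between the genes were not tested.

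**Figure D2:**
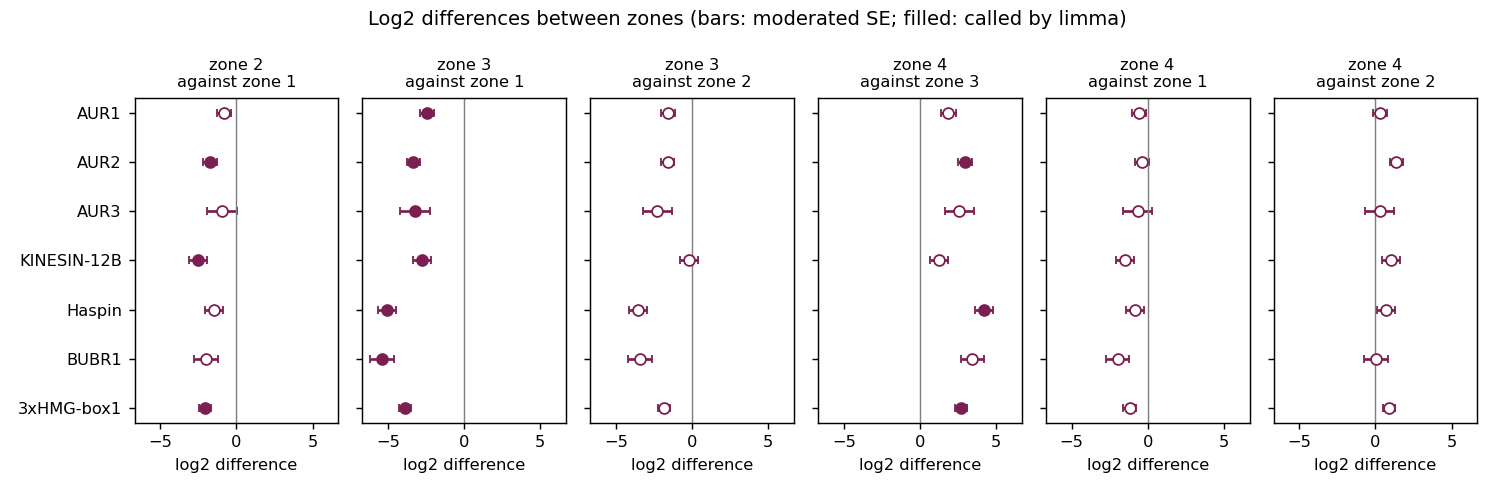
Log2 differences (x axis) of the 7 genes (y axis) in the 6 comparisons of zones. Bars are moderated standard errors from limma and filled points were called. All 7 points are filled for zone 3 against zone 1, 3 for zone 2 against zone 1 and 3 for zone 4 against zone 3, and none in the other panels.

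Between zones 2 and 1, 3 of the 7 genes were called, all lower in zone 2, where 4.78% of all probe sets were called lower. KINESIN-12B fell 5.83-fold (log2 difference -2.54, SE 0.59, adjusted p = 0.025), 3xHMG-box1 4.15-fold (adjusted p = 0.014) and AUR2 3.36-fold (adjusted p = 0.032). BUBR1 and Haspin had -2.00 and -1.50 (adjusted p = 0.11 and 0.12), and were called with dim signals raised (adjusted p = 0.017 and 0.034). AUR3 and AUR1 had -0.95 and -0.84 (adjusted p = 0.54 and 0.25). For all 7 genes both zone 1 arrays lay above both zone 2 arrays, which held for 29.5% of all probe sets. Without zone 1 replicate 1, KINESIN-12B, 3xHMG-box1 and AUR2 had log2 differences of -2.04, -1.60 and -1.12. Without zone 2 replicate 2 they had -2.12, -1.94 and -1.52 (in either case 1 array stands for a zone).

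Between zones 3 and 2 none of the 7 genes was called in limma, as no probe set was over the whole table (0.00%), although 6 of the 7 and 2470 of all probe sets had an unadjusted p under 0.05. Haspin, BUBR1 and 3xHMG-box1 had log2 differences of -3.58, -3.42 and -1.83, all with an adjusted p of 0.101. With dim signals raised these became -0.64, -0.44 and -1.21 (adjusted p = 0.46, 0.68 and 0.15). AUR1, AUR2 and AUR3 had -1.59, -1.60 and -2.29, and KINESIN-12B -0.21 (SE 0.59, adjusted p = 0.89). AUR3 had -0.98 with dim signals raised. Without zone 3 replicate 2, the array nearer to zone 2, AUR1, AUR3, Haspin and BUBR1 had log2 differences of -2.29, -4.31, -3.84 and -4.11. In that fit AUR2, 3xHMG-box1 and KINESIN-12B had -1.84, -1.94 and -0.97. Without zone 3 replicate 1 the first 4 genes had -0.90, -0.27, -3.31 and -2.74, and the other 3 had -1.36, -1.72 and 0.55. With zone 2 replicate 1 and zone 3 replicate 2 both left out, the first 4 had -2.31, -4.40, -3.66 and -3.77. The other 3 then had -1.60, -1.82 and -0.55. In each of these fits 1 array stands for zone 3.

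Between zones 4 and 3, 3 of the 7 genes were called, all higher in zone 4, where 1.85% of all probe sets were called higher. Haspin rose 18.9-fold (log2 difference 4.24, SE 0.59, adjusted p = 0.015), AUR2 7.82-fold and 3xHMG-box1 6.48-fold (both adjusted p = 0.017). BUBR1 and AUR1 had 3.45 and 1.88 (adjusted p = 0.051 and 0.065), and AUR3 and KINESIN-12B had 2.58 and 1.24 (adjusted p = 0.17 and 0.30). Both zone 4 arrays lay above both zone 3 arrays for all 7 genes, as for 30.9% of all probe sets. With any 1 array of zone 3 or zone 4 left out, 1 array stands for that zone, and only effect sizes are given. Log2 differences then ran from 3.97 to 4.51 for Haspin, 2.69 to 3.24 for AUR2 and 2.57 to 2.82 for 3xHMG-box1. They ran from 2.66 to 4.23 for BUBR1, 1.18 to 2.57 for AUR1, 0.56 to 4.60 for AUR3 and 0.48 to 2.00 for KINESIN-12B. With dim signals raised, Haspin had 1.303 and was not called (adjusted p = 0.12), and AUR1 was (1.88, adjusted p = 0.044). BUBR1 had 0.67 in that setting (adjusted p = 0.49) and 1.28 with 32 added to each signal (adjusted p = 0.099).

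**Figure D3:**
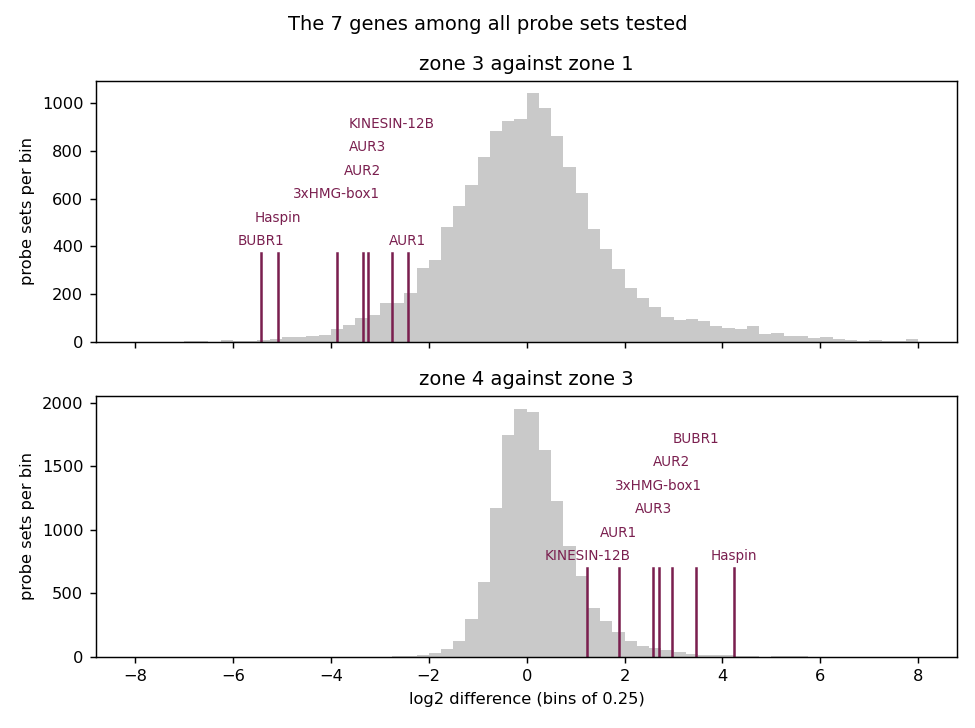
Number of probe sets (y axis) by log2 difference (x axis, bins of 0.25) over all 13647 probe sets tested, for zone 3 against zone 1 and zone 4 against zone 3, with the values of the 7 genes as vertical lines. The 7 lines lie in the left tail of the upper panel, between -5.42 and -2.43, and to the right of the centre in the lower one, between 1.24 and 4.24.

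Between zones 4 and 1 none of the 7 genes was called in limma, with 3 at an unadjusted p under 0.05, as 30.8% of all probe sets were, and 3.88% of all probe sets were called lower. BUBR1 and KINESIN-12B had the largest log2 differences, -1.97 (SE 0.77) and -1.52 (SE 0.59), both at an adjusted p of 0.11. 3xHMG-box1 had -1.19 (SE 0.40, adjusted p = 0.073). The Auroras had smaller ones, -0.56 for AUR1, -0.38 for AUR2 and -0.66 for AUR3 (SE 0.47, 0.44 and 0.96), and Haspin -0.84. This comparison depended on the scaling and on how dim signals were treated. Centring each array on its median put the median of all probe sets at -0.36, and KINESIN-12B (-1.88, adjusted p = 0.044) and 3xHMG-box1 (-1.55, adjusted p = 0.025) were then called. With dim signals raised, BUBR1 (-1.74, adjusted p = 0.023) and KINESIN-12B (-1.52, adjusted p = 0.043) were called. With 32 added to each signal 3 of the 7 were, BUBR1 among them (-1.47, adjusted p = 0.025).

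Between zones 4 and 2 none of the 7 genes was called in limma, 1 had an unadjusted p under 0.05, as did 11.4% of all probe sets, and 1 probe set of the whole table, unnamed here, was called (0.00733% of all). AUR2 had the largest log2 difference, 1.37 (SE 0.44, adjusted p = 0.27), followed by KINESIN-12B with 1.02 and 3xHMG-box1 with 0.87. Haspin had 0.66, AUR3 0.29 and AUR1 0.28. BUBR1 had 0.03, which became -0.057 with quantile normalization and -0.23 with each array centred on its median. Both zone 4 arrays lay above both zone 2 arrays for the 6 genes other than BUBR1, as for 27.1% of all probe sets.

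The 7 genes also moved together between arrays of the same zone. All 7 were higher in replicate 1 than in replicate 2 of zone 1 and of zone 4, with median log2 gaps of 0.91 and 0.48, and all 7 were lower in replicate 1 of zone 3 (median -1.37). Among all probe sets tested, 53.9%, 49.6% and 42.7% were higher in replicate 1 of zones 1, 4 and 3. In zone 2, 5 of 7 were higher in replicate 1, as were 49.2% of all probe sets. The GAPDH 3' to 5' ratio was 64.3 and 13.2 on the arrays of zone 1, 18.5 and 32.2 in zone 2, 14.8 and 26.0 in zone 3, and 29.5 and 17.7 in zone 4. The array with the larger ratio was thus the one with the higher mitotic signals in zones 1, 3 and 4. In zone 2 most of the 7 were higher on the array with the smaller ratio. The part of this ratio in the results was not tested. Summed over the 7 genes, the signal was 4280 and 2252 in zone 1, 1224 and 1080 in zone 2, 239 and 580 in zone 3, and 2223 and 1577 in zone 4. The zones did not overlap in this sum, although zone 1 replicate 2 and zone 4 replicate 1 were nearly equal. It mostly follows AUR1 and AUR2, with means over all arrays of 557 and 511, where 3xHMG-box1 came next with 180. Single genes did overlap between zones, as given above.

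Other mitosis genes were looked up in 7 lists of 124 loci, covering mitotic cyclins and kinases, the checkpoint and the anaphase promoting complex, spindle microtubules, the phragmoplast, kinetochore and chromosome structure, HMG-box proteins, and regulators. The annotation named 21 of the 124, none of them a mitotic cyclin or cyclin-dependent kinase, and 19 were tested. Of the 19, 14 were called lower and none higher in zone 3 than in zone 1, with a median log2 difference of -1.86, where 20.0% of all probe sets were called lower. Between zones 2 and 1, 7 of 19 were lower (median -1.37), against 4.78% of all probe sets. Between zones 4 and 3, 4 were higher (median 0.69), against 1.85%. By limma none was called between zones 3 and 2, 4 and 1 or 4 and 2, where 6, 7 and 1 of the 19 had an unadjusted p under 0.05, against 18.1%, 30.8% and 11.4% of all probe sets. The order of zones seen for the 7 genes held for 11 of the 19, against 15.0% of all probe sets. Of the 19, 17 were highest in zone 1 and 14 lowest in zone 3, against 37.8% and 35.6% of all probe sets. AT2G28620, of the spindle list, had the largest difference of the 19 between zones 3 and 1 (log2 -4.79, adjusted p = 0.00068) and -2.82 between zones 2 and 1 (adjusted p = 0.028). AT1G63100, of the regulator list, had -2.96 and -2.87 in the same comparisons (adjusted p = 0.0089 and 0.031).

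3xHMG-box2, the close relative of 3xHMG-box1, had zone means (± SD, n = 2, zones 1 to 4) of 1320 ± 89, 389 ± 61, 115 ± 77 and 581 ± 170.9. It was lower in zone 3 than in zone 1 (log2 difference -3.71, adjusted p = 0.00037) and higher in zone 4 than in zone 3 (2.50, adjusted p = 0.034). TOPII, the topoisomerase that separates sister chromosomes, had 925 ± 308, 307 ± 67, 96.8 ± 44 and 496 ± 55. The checkpoint gene BUB3.1 had 1081 ± 65, 402 ± 74, 190 ± 49 and 557 ± 134, and like 3xHMG-box2 and TOPII was called in 3 comparisons: lower in zones 2 and 3 than in zone 1, and higher in zone 4 than in zone 3. FU, a kinase gene of cytokinesis, was called in these too, with log2 differences of -1.40, -2.84 and 2.28. A second probe set of FU disagreed, with signals from 3.14 to 112 and its highest value on zone 3 replicate 2.

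Not all mitosis genes followed this course. WYR, whose protein is related to the partner INCENP of Aurora kinases, had 138 ± 18 in zone 1, then 45.5 ± 9.3, 51.6 ± 4.2 and 59.8 ± 2.6. It was lower in zone 2 and zone 3 than in zone 1 (adjusted p = 0.046 and 0.031), and its log2 difference between zones 4 and 3 was 0.22 (SE 0.46, adjusted p = 0.85). KEU, which acts in membrane fusion at the cell plate, had 288 ± 46, 277 ± 33, 384 ± 68 and 406 ± 14 and was called in no comparison. HTR12, the centromeric histone H3, had means from 51.2 to 80.8 and was not called either. AT4G15890, of the kinetochore list, was highest in zone 2 and lowest in zone 4, with 230 ± 16, 350 ± 48, 326 ± 67 and 184 ± 5.1. Its log2 differences were 0.60 between zones 2 and 1 and -0.81 between zones 4 and 3, and no comparison called it. Whether the 7 genes differ from WYR, KEU, HTR12 or AT4G15890 was not tested.

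**Figure D4:**
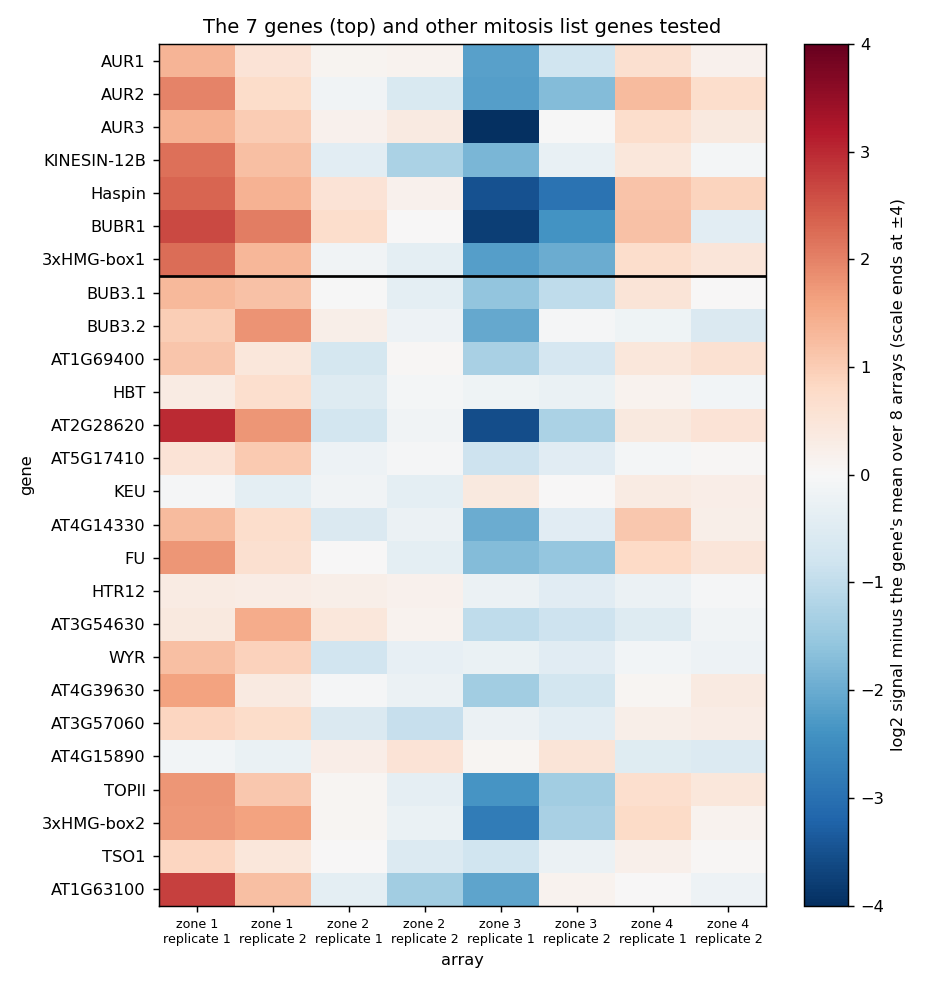
Log2 signal of each gene minus its mean over the 8 arrays (colour) for the 7 genes, above the black line, and the 19 other mitosis list genes tested, below it. Columns are the arrays, 2 per zone. Most rows are red in zone 1 and blue in zone 3, and in the zone 3 replicate 1 column AUR3 and BUBR1 are the darkest blue of the 7.

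Genes of DNA replication and of the meristem were compared from lists of 24 and 10 loci, of which 2 each were named. PRL, a subunit of the replication licensing helicase, and ICU2, a DNA polymerase subunit, were lower in zone 3 than in zone 1 (log2 differences -1.83 and -1.33, adjusted p = 0.0035 and 0.049), with zone means in the order of the 7 genes. BBM, a meristem transcription factor, had signals of 601 and 149 in zone 1, 7.61 and 8.76 in zone 2, 1.60 and 10.8 in zone 3, and 156 and 235 in zone 4. JKD, which acts in ground tissue patterning, had zone means from 85.2 to 101 and was not called. Of 13 loci listed for lateral root initiation, 4 were named, LBD16, LBD29, CR4 and PUCHI, and all 4 fell below the filter. LBD16 had signals of 19.4 and 80.7 in zone 4 and at most 27.1 elsewhere, so its zone 4 mean rests on 1 array. PUCHI and LBD29 had their highest mean in zone 3, and CR4 in zone 1. In zones 1 to 4 PUCHI had means of 25.1, 28.7, 57.6 and 32.2, and LBD29 1.50, 10.3, 20.7 and 14.2. The means of CR4 were 44.0, 36.6, 13.9 and 33.4. Of the root hair markers, EXPA7 had 11.2 ± 8.9, 48.4 ± 33, 131 ± 19 and 391 ± 322 in zones 1 to 4. EXPA7 and EXPA18 were called higher in zones 3 and 4 than in zone 1, and like the 7 mitotic genes both had log2 differences above 0 between zones 4 and 3, 1.29 and 1.58, without a call. No vascular, endodermal or root cap marker of the lists was named, and the part of cell composition in the results was not tested.

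Likeness to the 7 genes was measured as Pearson's r over the 8 arrays between a gene's log2 signal and the mean of the centred log2 signals of the 7, as a description with no test. The measure was taken over 4369 other probe sets with 1 gene whose zone means spanned at least 1 on the log2 scale, and 603 of them had r of at least 0.9. The 8 arrays fall into zones, so a high r mostly says that the zone means have the same course. The most alike were AT5G15550 (r = 0.997), TOPII (0.996), AT1G06630 (0.992), AT4G15830 (0.991) and AT2G45730 (0.991). AT3G51720, 3xHMG-box2, MAP1C, AT5G64680 and AT5G65260 followed at 0.990. All 10 had zone means in the order of the 7 genes, which picking them by r largely fixes. AT5G65260 was not called in the F-test over the 4 zones. Among the 7, the likeness of each gene to the mean of the other 6 was highest for AUR1 (0.98) and lowest for KINESIN-12B (0.834) and AUR3 (0.842).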

How the data were processed

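Total RNA from root zones was amplified in a two-cycle protocol and hybridised to Affymetrix arrays (labels' protocols). The authors deposited 1 linear intensity per probe set and array, made with MAS5 per the submitters' processing notes. Neither its version nor the chip definition is given in the sources used here. Of 22810 probe sets, 64 controls were left out. Of the other 22746 the platform annotation gave 13513 1 gene, 503 several and left 8730 unnamed here. Names were updated through the gene table of assembly TAIR10.1, where 13436 matched. Its coordinates were not used.

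Signals were taken to log2 without offset, and the lowest 40% by mean were left out. A model with a mean for each zone was fitted to the 8 arrays with limma 3.58.1 (R 4.3.3; 4 residual and 6.5 prior degrees of freedom, prior variance following the signal). Tests are two-sided, adjusted by Benjamini-Hochberg over 13647 probe sets, and called where the adjusted p was below 0.05 and the change 2-fold or more (F-test: adjusted p alone). The fit was tested on simulated data with changes added between zones 4 and 1. It called 28% of log2 changes of 1.5, 74% of 2, 92% of 3 and 100% of 4, and 7 unchanged probe sets. The simulation changed few probe sets, and only in zone 4, so its rates do not carry over to comparisons with other numbers of calls. Between zones 3 and 2 no probe set was called, Haspin at a log2 difference of -3.58 included. A missing call therefore does not show that a difference was absent. Errors are SDs of 2 arrays or moderated SEs. List genes were named from the up to 4 members of each list with the largest differences in any comparison, passing or not; not all of these are named, and which were was chosen after their values were seen. Lateral root genes, untested, are given as values. Likeness named the top 10. Of several probe sets for a locus, the brightest was used. The 7 genes, lists and tests were chosen with earlier results of these data known. Same-numbered replicates did not deviate together (correlations between zones from -0.19 to 0.04). Plots were made with matplotlib 3.10.9 and tables with pandas 2.3.3 in Python 3.11.15.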

Additional observations from a re-analysis of the deposited data

How the results depend on the processing

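The alternatives were quantile normalization, centring arrays on the median, no filter, adding 32 to each signal, raising dim signals to the 40th percentile (the floor), a prior without trend, a replicate block, and leaving out each array; leaving out zone 2 replicate 1 with zone 3 replicate 2 was added after seeing the data. The number of the 7 genes called was 3 between zones 2 and 1, and became 5 with 32 added, 5 with the floor and 1 without trend. Over all 13647 probe sets the number was 1645, and became 1898, 1986 and 804 in these settings. Of the 7 genes 3 were called between zones 4 and 3. Between zones 4 and 1 the number was 0, becoming 2 with median centring, 3 with 32 added and 2 with the floor. Over all probe sets it was 1957 between zones 4 and 1, and became 2449, 2291 and 2442 in these settings. With an array left out, 1 array stood for a zone, so numbers called are not given for those fits. They changed over all probe sets as well as for the 7 genes. In zone 3 against zone 1 AUR3 had log2 differences of -3.06 without zone 1 replicate 1 and -3.43 without zone 1 replicate 2. Without zone 3 replicate 1 it had -1.22. Of the 672 single log2 differences recomputed, 617 kept direction and call, 25 lost and 23 gained the call and 7 reversed. These were KINESIN-12B between zones 3 and 2 (0.21 without zone 2 replicate 1, 0.55 without zone 3 replicate 1, range -0.97 to 0.55), AUR2 between zones 4 and 1 (0.25 without zone 1 replicate 1, range -1.01 to 0.25) and BUBR1 between zones 4 and 2 (-0.057 with quantile normalization, -0.23 with median centring, -0.31 without zone 2 replicate 2, -0.76 without zone 4 replicate 1, range -0.76 to 0.81). None of the reversed differences was called. The cause was not tested. The replicate block left the number called at 3, 7, 0, 3, 0 and 0 in the 6 comparisons and 6 in the F-test, and changed no call. Signals at the dim end of the arrays limit the zone 3 values of Haspin, BUBR1, 3xHMG-box1 and, on 1 array, AUR3 and KINESIN-12B. KINESIN-12B and BUBR1 were also below the 40th percentile on zone 2 replicate 2, and BUBR1 on zone 4 replicate 2.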
